A study of Mus musculus with 12 samples.

Results

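The 7 genes described here belong to the glucocorticoid response and the angiotensin system, and were measured in epididymal white adipose tissue (eWAT). They were chosen by symbol, namely Hsd11b1, Fkbp5, Tsc22d3, Sgk1, Agt, Ace and Agtr1a, and all 7 of the 22870 genes with a value passed the filter on low values. The tissue came from male C57BL/6J mice that were 21 weeks old after 16 weeks on a normal diet (ND), a high-fat diet (HFD), the HFD with 1.5% chrysanthemum leaf ethanol extract (CLE) or the HFD with 0.003% luteolin (LU). The CLE and LU groups thus shared the HFD, and HFD is the control of both supplements. Each group held 3 mice with 1 library each, 12 libraries in all, which the study picked as representative of larger groups. The whole fat pad was extracted, so that fewer cells of a type and less RNA per cell cannot be told apart in any value below.

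Glucocorticoids act on adipose tissue through the glucocorticoid receptor (Nr3c1), a nuclear receptor that binds DNA and turns on a set of target genes. The hormone is also regenerated within the fat cell from its inactive keto form by the enzyme that Hsd11b1 encodes. Fkbp5 (a cochaperone that restrains the receptor), Tsc22d3 (the anti-inflammatory leucine zipper protein GILZ) and Sgk1 (a kinase that regulates ion channels and glucose transport) are classical targets of the receptor. Adipose tissue is also a source of angiotensinogen, encoded by Agt, from which renin and the angiotensin-converting enzyme encoded by Ace form angiotensin II, the ligand of the receptor encoded by Agtr1a.

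Values are FPKM, fragments per kilobase of transcript scaled to the mapped fragments of the library, summed over the transcripts of a gene. Fold changes are log2 differences of FPKM + 1, with their standard error (SE). A gene was called when its limma p, adjusted by Benjamini-Hochberg over the 12769 genes that passed the filter (FPKM of 1 or more in 3 libraries or more), was under 0.05 and its fold change exceeded 1.5. An exact permutation test of 3 mice against 3 cannot give a two-sided p under 0.1, so that for single values the overlap of the groups is given in its place.

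The 8 adipocyte markers were detected in every library, and their summed level lay between 12756 and 15801 FPKM in the ND mice, 6187 and 7079 in the HFD mice, 9477 and 11776 in the CLE mice, and 8653 and 9785 in the LU mice. The summed level of the 8 macrophage markers moved the opposite way, from 318 to 480 FPKM in ND to 2351 to 2744 in HFD. It was 555 to 877 FPKM in CLE and 885 to 1052 in LU. Single genes weighed heavily in these sums. Cfd led the adipocyte sum in ND, with a mean of 5255 FPKM there and 447 in HFD, while Lep rose from 248 to 1245 FPKM. Lyz2 led the macrophage sum in every group, and the group means of Mertk lay between 21.1 and 24.7 FPKM. The summed endothelial markers lay between 293 and 459 FPKM in HFD and between 437 and 723 in the other 3 groups. The summed mesothelial markers ranged from 2.36 to 7.88 FPKM in HFD and from 7.94 to 65.9 in the other groups. The summed liver markers, led by Alb in every group, lay between 15.9 and 36.2 FPKM in ND and between 2.67 and 12.1 in HFD. They lay between 8.46 and 30.3 FPKM in CLE and between 5.75 and 7.69 in LU. Summed markers of epididymis and of testis stayed at or under 5.69 FPKM in every library. The titles of 4 libraries (ND mice 3 and 4, CLE mouse 4, LU mouse 2) carry the letter R, which no HFD library does, and what it marks is not given. The column headers of these 4 libraries also end in the same number, which no other column used here has.

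Hsd11b1, Agt and Agtr1a were lower in HFD than in ND, and these same 3 genes were higher with either supplement than in HFD, whereas Fkbp5, Tsc22d3, Sgk1 and Ace were not called in any comparison. Between HFD and ND, 3 of the 7 were called, all lower, where 10.8% of all tested genes were called lower, 14.8% higher and 25.6% in either direction. Between CLE and HFD, 3 of the 7 were called, all higher, beside 6.34% of all tested genes called higher, 10.1% lower and 16.5% in either direction. For LU against HFD the count was again 3 of 7, all higher, beside 4.81% called higher, 7.64% lower and 12.5% in either direction. The median fold change of the 7 genes was -0.29 for HFD against ND, 0.71 for CLE against HFD and 0.56 for LU against HFD, where the medians of all tested genes were -0.02, 0.01 and 0.03. The groups did not overlap, with HFD the lower, for 2 members against ND (29.3% of all tested genes), and with the supplement the higher for 3 members with CLE (24.4%) and 4 with LU (25.6%). These comparisons share the HFD mice, so that a gene low in those mice appears in all of them.

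**Figure D1:**
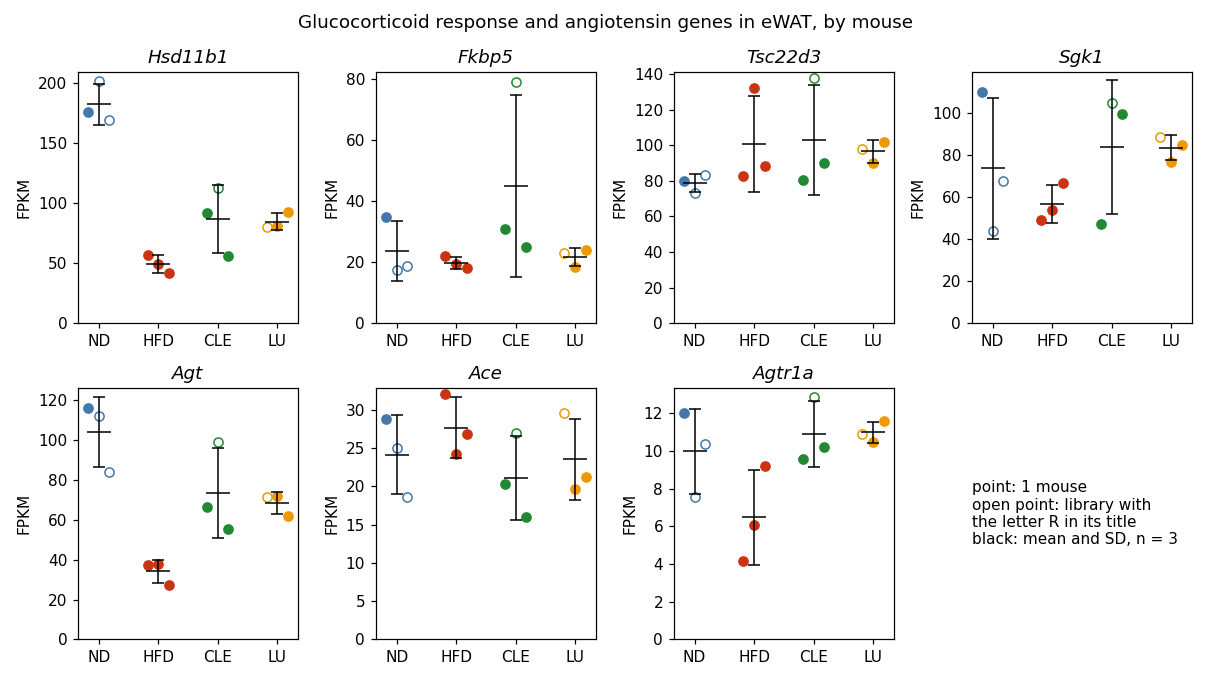
FPKM of the 7 genes (vertical axes, from 0) in the 4 groups, with 1 point per mouse, open for libraries with the letter R, and the mean and SD of 3 mice in black. Hsd11b1 and Agt are lowest in HFD and intermediate in CLE and LU, while Fkbp5 stands out in a single CLE mouse at 79.1 FPKM.

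Hsd11b1, on chromosome 1 (GRCm38, 193221634 to 193264075, minus strand), had the highest mean of the 7 genes in ND. Its level was 176, 201 and 169 FPKM in ND mice 2, 3 and 4, and 56.3, 49.4 and 41.7 FPKM in HFD mice 12, 15 and 18. It was 91.4, 112 and 55.8 FPKM in CLE mice 2, 4 and 11, and 80.3, 80.7 and 92.6 FPKM in LU mice 2, 3 and 8. Every ND mouse was above every other mouse, every LU mouse was above every HFD mouse, and CLE mouse 11 lay just under the highest HFD mouse.

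The fall in HFD was -1.87 on the log2 scale (SE 0.21, limma adjusted p = 2.5e-05), from a mean of 182 ± 17.1 to 49.1 ± 7.34 FPKM (SD, n = 3). With CLE the gene was higher than in HFD by 0.76 (SE 0.21, limma adjusted p = 0.016), and with LU by 0.78 (SE 0.21, limma adjusted p = 0.017). Both calls depended on single mice, and that of CLE was also lost without the 4 libraries with the letter R (0.54, adjusted p = 0.11). Without CLE mouse 4 the CLE difference was 0.54 (adjusted p = 0.064), without CLE mouse 2 it was 0.69 (adjusted p = 0.055), and without HFD mouse 18 it was 0.65 (adjusted p = 0.064). The LU difference without HFD mouse 18 was 0.67 (adjusted p = 0.069), and without LU mouse 8 it was 0.71 (adjusted p = 0.053). Neither supplement reached the ND level, and the mice did not overlap (11.5% of all tested genes lower without overlap for CLE against ND, 11.6% for LU against ND). Hsd11b1 was lower than in ND by -1.12 with CLE (SE 0.21, adjusted p = 0.016, where 0.854% of all tested genes were called lower) and by -1.10 with LU (SE 0.21, adjusted p = 0.0069, where 1.62% were).

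The transcripts of Hsd11b1 start in 3 regions, of which the main one (5′ ends between 193241424 and 193243524) held 98.7% of the gene's FPKM in ND. The 250 bases before its RefSeq start are shown because this is the start region whose level fell. They lie at chr1:193242361-193242610 (GRCm38.p6, minus strand) and hold none of the motifs searched below.

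Hsd11b1: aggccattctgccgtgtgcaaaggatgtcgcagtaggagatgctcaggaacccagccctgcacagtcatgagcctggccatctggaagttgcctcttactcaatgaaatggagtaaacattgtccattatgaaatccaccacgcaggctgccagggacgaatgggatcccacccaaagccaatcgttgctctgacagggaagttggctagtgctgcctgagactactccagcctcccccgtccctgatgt

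A second start, 193264054 (minus strand), lies farther upstream and moved the opposite way. Transcripts from it had 2.32, 1.29 and 3.26 FPKM in the ND mice, 8.96, 9.62 and 9.86 FPKM in the HFD mice, 4.98, 4.28 and 4.97 FPKM in the CLE mice, and 4.69, 5.18 and 7.31 FPKM in the LU mice. Every HFD mouse was thus above every other mouse, and every CLE and LU mouse above every ND mouse. The distal start made up 1.3% of Hsd11b1 in ND, 19.7% in HFD, 6.05% in CLE and 6.72% in LU (means of 3 mice). For each of HFD against ND, CLE against HFD and LU against HFD, the exact permutation p of the distal and of the main region was 0.1, the smallest possible. The share of all start regions that separate in this way was not counted. At the level of whole genes, 29.3% of all tested genes were lower in HFD than in ND without overlap. The main region alone fell from 180 ± 18 FPKM in ND to 39.7 ± 7.79 in HFD (SD, n = 3).

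FPKM of single transcripts are estimates that share reads between isoforms. Lamb3, a laminin gene on the opposite strand (193207699 to 193343878), spans the whole of Hsd11b1, and the libraries were taken not to mark strand. Its level was 2.28, 2.09 and 2.69 FPKM in the ND mice and 8.54, 7.05 and 8.87 FPKM in the HFD mice, with 3.76 to 5.91 FPKM in CLE and 4.79 to 9.09 FPKM in LU, the direction of the distal start. The annotated exons of the distal transcript and of Lamb3 share 0 bases. The part of Lamb3 reads in the distal start was not tested.

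**Figure D2:**
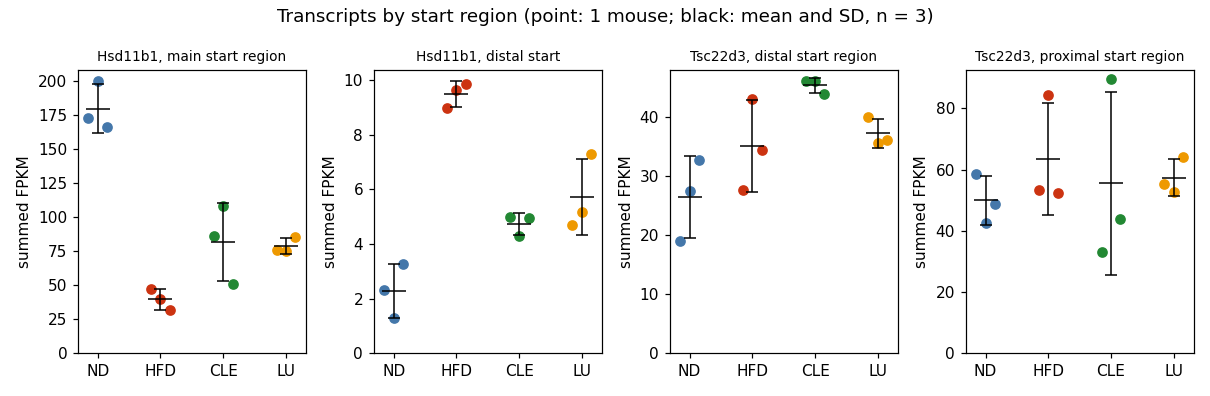
Summed FPKM of the transcripts of Hsd11b1 and Tsc22d3 by start region (vertical axes, from 0), with 1 point per mouse and the mean and SD of 3 mice in black. The distal start of Hsd11b1 is highest in HFD, where the main region is lowest. The distal region of Tsc22d3 is at 43.8 to 46 FPKM in the CLE mice, beside 27.6 to 43 FPKM in the HFD mice.

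Of the list of 16 genes for hormone activation, receptors and chaperones, 13 were tested. Hsd11b1 was the only 1 called in HFD against ND, where 10.8% of all tested genes were called lower and 25.6% in either direction. With CLE, Hsd11b1 and H6pd were called higher than in HFD, and with LU Hsd11b1 alone. Beside these, 6.34% and 4.81% of all tested genes were called higher, and 16.5% and 12.5% in either direction. The glucocorticoid receptor Nr3c1 was at 37 to 40.2 FPKM in ND, 31.4 to 32.8 in HFD, 35.7 to 40.2 in CLE and 33.1 to 39.7 in LU. Its difference of -0.26 between HFD and ND (SE 0.09, adjusted p = 0.031) did not reach the fold change asked for a call. The mineralocorticoid receptor Nr3c2, which binds the same hormone, lay between 2.8 and 5.43 FPKM in all 12 libraries and was not called. H6pd, whose enzyme supplies the cofactor for the reaction of Hsd11b1, was at 178, 174 and 190 FPKM in ND and at 175, 146 and 146 FPKM in HFD. In CLE it was at 246, 251 and 216 FPKM, higher than in HFD by 0.61 (SE 0.10, adjusted p = 0.00074), and in LU at 207, 193 and 219 FPKM, a difference of 0.41 (SE 0.10, adjusted p = 0.011) that was under the fold change for a call. Hsd11b2, the enzyme of the reverse reaction, did not pass the filter, with at most 1.03 FPKM.

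Fkbp5 (chromosome 17, 28399094 to 28517527, minus strand) was at 34.9, 17.5 and 18.6 FPKM in the ND mice and at 22, 19.3 and 18.1 FPKM in the HFD mice. It was at 30.7, 79.1 and 24.8 FPKM in CLE mice 2, 4 and 11, with 22.9, 18.4 and 23.9 FPKM in the LU mice. All 3 CLE mice were above all HFD and LU mice, and CLE mouse 4 was the highest library by far. In that mouse, transcripts from the RefSeq start at 28486149 held 12.9 FPKM. Starts farther downstream, at 28438538 and at 28428629 to 28428978, held 19.1 and 31.7 FPKM. The difference between CLE and HFD was 0.96 (SE 0.36, interval 0.17 to 1.75) with an adjusted p of 0.061, so Fkbp5 was not called. The value rests on CLE mouse 4, since without it the difference was 0.47 (adjusted p = 0.2), whereas without CLE mouse 11 it was 1.28 (adjusted p = 0.02) and the gene was called, as it was without ND mouse 2 (0.96, adjusted p = 0.044). It was also called with array weights (1.20, adjusted p = 0.01) and with quantile normalization (1.02, adjusted p = 0.047). For HFD against ND the difference was -0.18 (SE 0.36, adjusted p = 0.7), but -0.79 (adjusted p = 0.017) and called lower without the letter R libraries, which leaves ND mouse 2 alone in its group.

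Tsc22d3 (chromosome X, 140539528 to 140600659, minus strand) was at 80.1, 73.1 and 83.1 FPKM in ND and at 82.5, 132 and 88.4 FPKM in HFD. It was at 80.3, 138 and 90.3 FPKM in CLE mice 2, 4 and 11, and at 97.8, 89.8 and 102 FPKM in LU. The gene was high in 2 libraries, HFD mouse 15 and CLE mouse 4, and no group stood apart as a whole. The difference of HFD to ND was 0.32 (SE 0.20, adjusted p = 0.2), that of CLE to HFD 0.02 (interval -0.42 to 0.46) and that of LU to HFD -0.03 (interval -0.47 to 0.41). Every LU mouse was above every ND mouse (0.29, SE 0.20, adjusted p = 0.38), as was so for 18.5% of all tested genes.

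Tsc22d3 has a distal start region that gives longer transcripts (5′ ends 140598903 to 140600659) and a proximal one led by the transcript ENSMUST00000055738 (140542668 to 140543187). The distal region was at 19.0, 27.5 and 32.7 FPKM in ND, 27.6, 43.0 and 34.4 in HFD, 46.0, 46.0 and 43.8 in CLE, and 40.0, 35.6 and 36.0 in LU. The CLE mice lay above the HFD mice without overlap here (exact permutation p = 0.1, the smallest possible). At the level of whole genes, the same was so for 24.4% of all tested genes. The share of start regions for which it was so was not counted. In the proximal region the CLE and HFD mice overlapped (exact permutation p = 0.6). The high total of CLE mouse 4 lay in the proximal region, at 89.4 FPKM beside 33.1 and 43.9 FPKM in CLE mice 2 and 11. That of HFD mouse 15 was also there, at 84.4 FPKM beside 53.2 and 52.3 FPKM in HFD mice 12 and 18.

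Sgk1 (chromosome 10, 21882184 to 21999903, plus strand) was at 110, 43.9 and 67.5 FPKM in ND mice 2, 3 and 4, a range as wide as that of the CLE mice. It was at 49.1, 54.1 and 66.7 FPKM in HFD, 47.1, 105 and 99.7 FPKM in CLE mice 2, 4 and 11, and 88.5, 77.0 and 85.1 FPKM in LU. Every LU mouse was above every HFD mouse, while the CLE mice overlapped with the HFD mice. The difference of LU to HFD was 0.56 (SE 0.33, interval -0.16 to 1.28, adjusted p = 0.23) and that of CLE to HFD was 0.48 (SE 0.33, interval -0.23 to 1.20, adjusted p = 0.28), which was 0.28 without CLE mouse 4, 0.32 without CLE mouse 11 and 0.85 without CLE mouse 2 (adjusted p = 0.6, 0.54 and 0.05). The difference of HFD to ND was -0.29 (SE 0.33, adjusted p = 0.49), and it was 0.05 without ND mouse 2 and -0.61 without ND mouse 3, while the single most abundant transcript was called lower (-0.72, adjusted p = 0.048). Of the 6 start regions of Sgk1, that with 5′ ends between 21993890 and 21994910 held most of the gene, with a mean of 49.7 FPKM in HFD, 77.7 in CLE and 79.3 in LU.

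The 250 bases before each RefSeq start (GRCm38.p6) were searched on both strands for AGAACA (the element that the glucocorticoid receptor binds on 1 side of its dimer), the full palindrome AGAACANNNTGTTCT, the C/EBP element TTGCNNAA, the E-box CACGTG and the TATA box TATAAA. Entries were found for 6 of the 7 genes, all but Agtr1a. The Sgk1 promoter at chr10:21993640-21993889 (plus strand) is shown because it holds the full palindrome, which 3 of the 32851 windows searched (0.00913%) hold, the other 2 being those of Acnat2 and Gm35041. Capitals mark AGAACA and its complement, at -242, and the palindrome from -189, both counted from the RefSeq start at 21993890. The palindrome contains 2 further matches to the shorter element, and an E-box at -246 overlaps the first match and is not in capitals.

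Sgk1: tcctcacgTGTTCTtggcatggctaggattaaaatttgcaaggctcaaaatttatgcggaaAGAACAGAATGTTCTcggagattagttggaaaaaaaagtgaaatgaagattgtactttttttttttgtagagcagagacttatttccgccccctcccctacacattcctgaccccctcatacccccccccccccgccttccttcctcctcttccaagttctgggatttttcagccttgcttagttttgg

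The transcript that leads this start region, ENSMUST00000020145, starts at 21994666, which is 965 bases downstream of the palindrome. The shorter element AGAACA is found in 16.1% of all windows, and among the members also in the distal Tsc22d3 promoter at -185 and in 2 of the other Sgk1 windows, at -195 and -13. The Fkbp5 window held only an E-box, at -169, which 6.02% of windows hold. The start behind this window held a mean of 18.6% (LU) to 25.1% (HFD) of the gene's FPKM. A match is a description of letters, and none says that the receptor was bound in this tissue.

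Glucocorticoid-induced genes moved in both directions. Of a list of 26 such genes, 24 were tested, and in HFD 3 were called higher than in ND and 5 lower, where 14.8% and 10.8% of all tested genes were. The 3 were Anxa1 (annexin A1, an anti-inflammatory phospholipid-binding protein), Gadd45b and Bcl6, and the 5 were Ddit4, Txnip, Klf9, Zbtb16 and Errfi1. The median difference of the 24 was -0.20, beside -0.02 for all tested genes. Anxa1 rose by 1.85 (SE 0.20, adjusted p = 1.9e-05), from 125, 187 and 234 FPKM in ND to 683, 602 and 636 FPKM in HFD, and Gadd45b by 1.46 (SE 0.27, adjusted p = 0.001). Ddit4, an inhibitor of mTOR signalling, fell by 1.20 (adjusted p = 0.012), from 55.5 to 158 FPKM in ND to 25.4 to 48.5 FPKM in HFD.

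With CLE, 4 of the 24 were called higher than in HFD (Zbtb16, Fam107a, Txnip and Arrdc2) and 2 lower (Lcn2 and Anxa1), beside 6.34% and 10.1% of all tested genes, with a median of 0.34. With LU, Zbtb16 and Txnip were called higher and Anxa1 lower, beside 4.81% and 7.64% of all tested genes, with a median of 0.16. Zbtb16, a zinc finger transcription factor, had 20.1, 14.2 and 13.5 FPKM in HFD, 37.6, 55.8 and 31.6 FPKM in the CLE mice, and 31.3, 35.9 and 29.4 FPKM in the LU mice. It was higher than in HFD by 1.31 with CLE (SE 0.20, adjusted p = 0.00058) and by 0.99 with LU (SE 0.20, adjusted p = 0.0049). Txnip, which binds thioredoxin and limits glucose uptake, fell by 1.16 in HFD (SE 0.13, adjusted p = 2.2e-05) and rose by 0.73 with CLE (adjusted p = 0.0011) and 0.74 with LU (adjusted p = 0.0017). Lcn2, an iron-carrier-binding protein, was lower with CLE by -1.81 (SE 0.57, adjusted p = 0.03).

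Among the 24 genes, 2 libraries held most of the highest values, a pattern noticed after the values were seen. CLE mouse 4 was the highest of the 12 libraries in 8 genes, namely Fkbp5, Tsc22d3, Zbtb16, Mt1, Mt2, Pdk4, Arrdc2 and Fam107a, while it was highest in 7.01% of all tested genes. ND mouse 2 was highest in 8 others, namely Sgk1, Per1, Klf9, Klf15, Errfi1, Ddit4, Nfkbia and Txnip, while it was highest in 16.6% of all tested genes. Mt2, a metallothionein, was at 534 FPKM in CLE mouse 4 beside 177 and 276 FPKM in CLE mice 2 and 11. Per1, a clock gene that the receptor also induces, was at 46.0 FPKM in ND mouse 2 beside 20.5 and 19.4 FPKM in ND mice 3 and 4. The high Fkbp5 value of CLE mouse 4 and the high Sgk1 value of ND mouse 2 thus stood beside high values of other genes of the list in the same mouse. CLE mouse 4 is the CLE library with the letter R, and ND mouse 2 is the ND library without it, and the part of what the letter marks was not tested.

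**Figure D3:**
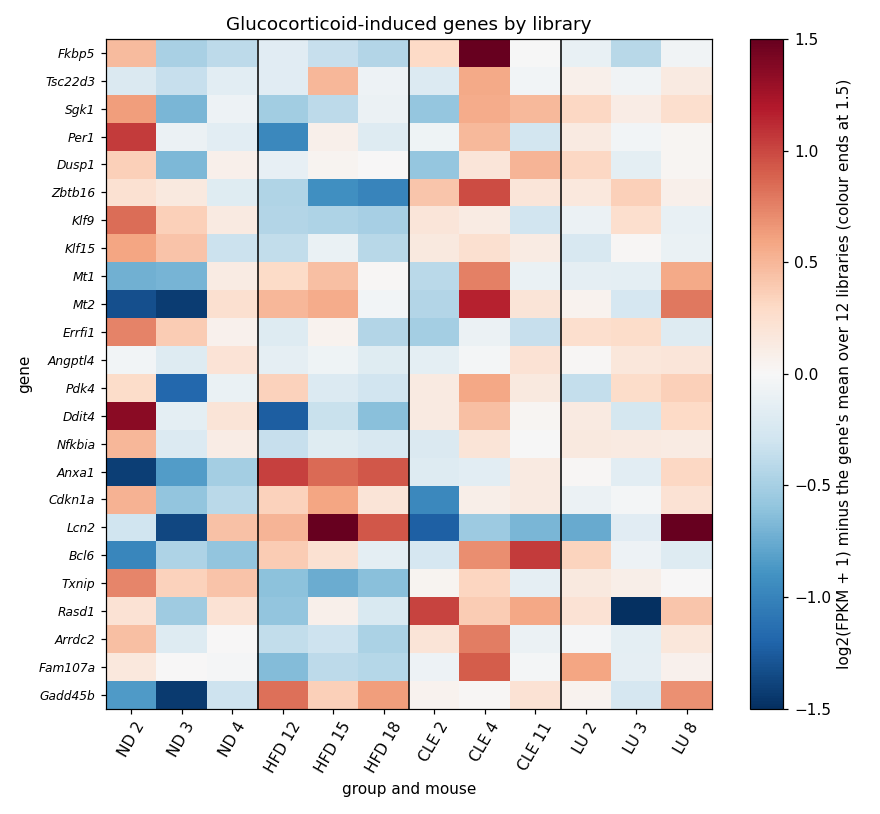
The 24 tested glucocorticoid-induced genes (rows) in the 12 libraries (columns, by group and mouse number), coloured by log2(FPKM + 1) minus the gene's mean, red above and blue below, with colours ending at 1.5. CLE mouse 4 and ND mouse 2 each hold the highest value in 8 genes, and the HFD mice are high in Anxa1 and Gadd45b.

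Of the SGK family and substrates of the kinase, 7 of 9 genes were tested. Nedd4l, a ubiquitin ligase that SGK1 phosphorylates, rose by 1.35 in HFD (SE 0.17, adjusted p = 6.1e-05) and was lower than in HFD by -0.74 with CLE (adjusted p = 0.0066) and by -0.63 with LU (adjusted p = 0.019). Ndrg1, another substrate, was at 108, 70.2 and 105 FPKM in ND and at 53.4, 38.2 and 50.7 FPKM in HFD, with 95.6, 121 and 97.7 FPKM in CLE and 111, 100 and 91.7 FPKM in LU. It fell by 0.97 in HFD (SE 0.18, adjusted p = 0.00088), and rose by 1.13 with CLE (adjusted p = 0.0006) and 1.09 with LU (adjusted p = 0.0013). Ndrg2 was called higher with LU (0.59, SE 0.12, adjusted p = 0.0042). It was not called with CLE, although its mean was 147 FPKM there, beside 148 with LU and 98.4 in HFD.

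Agt (chromosome 8, 124556534 to 124569706, minus strand) was at 116, 112 and 84.2 FPKM in ND mice 2, 3 and 4, and at 37.3, 37.9 and 27.5 FPKM in HFD mice 12, 15 and 18. It was at 66.5, 98.9 and 55.3 FPKM in CLE mice 2, 4 and 11, and at 71.7, 71.8 and 61.9 FPKM in LU mice 2, 3 and 8. The HFD mice were below all 9 others, the LU mice were below all ND mice, and only CLE mouse 4 reached into the range of ND. Agt fell by 1.57 in HFD (SE 0.20, limma adjusted p = 7.1e-05). It was higher than in HFD by 1.05 with CLE (SE 0.20, limma adjusted p = 0.0022) and by 0.99 with LU (SE 0.20, limma adjusted p = 0.0046). These 3 calls held without any single library. Compared with ND, Agt was not called with CLE (-0.52, interval -0.96 to -0.08, adjusted p = 0.15) or LU (-0.58, interval -1.03 to -0.14, adjusted p = 0.083).

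All transcripts of Agt start within a single region. Its promoter (chr8:124569707-124569956, minus strand) is shown because Agt gave the firmest calls, with its TATA box at -30 in capitals, an element that 12.4% of windows hold. The letters AGAACA are not in this window.

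Agt: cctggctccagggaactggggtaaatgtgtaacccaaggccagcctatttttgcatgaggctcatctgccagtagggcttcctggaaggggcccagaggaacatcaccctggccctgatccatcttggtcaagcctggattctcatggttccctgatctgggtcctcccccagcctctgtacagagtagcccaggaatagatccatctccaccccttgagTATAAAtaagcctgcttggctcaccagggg

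Ace (chromosome 11, 105967945 to 105989964, plus strand) was at 28.8, 25.0 and 18.6 FPKM in ND, 32.0, 24.2 and 26.8 FPKM in HFD, 20.3, 26.9 and 16.0 FPKM in CLE, and 29.6, 19.7 and 21.2 FPKM in LU. The 4 groups overlapped. The difference of HFD to ND was 0.20 (SE 0.21, adjusted p = 0.45), that of CLE to HFD was -0.40 (SE 0.21, interval -0.86 to 0.06, adjusted p = 0.17), and that of LU to HFD was -0.24 (SE 0.21, adjusted p = 0.43). Without the 4 libraries with the letter R, a setting that also ended calls of Hsd11b1 and Agtr1a, Ace was called lower in CLE than in HFD (-0.59, adjusted p = 0.028). The start of the long somatic form at 105967945 held 16.6 ± 4.08 FPKM in ND and 18.1 ± 2.21 in HFD (SD, n = 3). Its RefSeq promoter holds TATAAA on the opposite strand, at -31. The internal start at 105975208, from which the short testis form is made, was at or under 0.316 FPKM in every library. The antisense gene Gm11651 shares 295 exon bases with Ace, and reads of the 2 strands cannot then be told apart there.

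Agtr1a (chromosome 13, 30336441 to 30382867, plus strand) had the lowest level of the 7 genes. It was at 12.0, 7.57 and 10.4 FPKM in the ND mice, 4.18, 6.06 and 9.20 FPKM in HFD mice 12, 15 and 18, 9.59, 12.9 and 10.2 FPKM in the CLE mice, and 10.9, 10.5 and 11.6 FPKM in the LU mice. All CLE and LU mice were above all HFD mice, whereas HFD mouse 18 was above ND mouse 3. Agtr1a was higher than in HFD by 0.71 with CLE (SE 0.22, limma adjusted p = 0.026) and by 0.74 with LU (SE 0.22, limma adjusted p = 0.028), and it was lower in HFD than in ND by -0.59 (SE 0.22, limma adjusted p = 0.042).

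The Agtr1a calls were close to the threshold. That of HFD against ND was lost when any of 8 of the 12 libraries was left out, and most without HFD mouse 12 (-0.35, adjusted p = 0.18) and ND mouse 2 (-0.46, adjusted p = 0.14). The CLE difference was 0.48 (adjusted p = 0.1) without HFD mouse 12, 0.70 (adjusted p = 0.068) without HFD mouse 15 and 0.60 (adjusted p = 0.099) without CLE mouse 4. Without the 4 libraries with the letter R all 3 calls were lost, at -0.85 (adjusted p = 0.072) for HFD against ND, 0.60 (adjusted p = 0.12) for CLE against HFD and 0.74 (adjusted p = 0.075) for LU against HFD. The LU difference was 0.50 (adjusted p = 0.11) without HFD mouse 12, and between 0.70 and 0.76 without HFD mouse 15 or any of the LU mice, where the call was also lost.

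The other genes of the renin-angiotensin list that were called moved the other way. Of 22 genes, 15 were tested, and in HFD 6 were called higher than in ND (Anpep, Prcp, Cma1, Nln, Prep and Atp6ap2) and 2 lower (Agt and Agtr1a), beside 14.8% and 10.8% of all tested genes, with a median of 0.25. With CLE and with LU, Agt and Agtr1a were called higher and Anpep, Cma1 and Prcp lower than in HFD, with medians of -0.32 and -0.24. The shares of all tested genes were 6.34% higher and 10.1% lower with CLE, and 4.81% and 7.64% with LU. The 6 that rose encode peptidases that trim or form angiotensins, among other peptides, and a prorenin receptor (Atp6ap2).

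Anpep, an aminopeptidase of the cell surface, was at 7.23, 7.80 and 9.04 FPKM in ND, 94.1, 74.1 and 86.9 FPKM in HFD, 11.5, 14.2 and 29.4 FPKM in CLE, and 21.4, 21.1 and 30.1 FPKM in LU. It rose by 3.25 in HFD (SE 0.27, adjusted p = 3e-06) and was lower than in HFD by -2.26 with CLE (adjusted p = 0.0001) and by -1.78 with LU (adjusted p = 0.00081). Prcp, a lysosomal carboxypeptidase, rose by 1.47 in HFD (SE 0.12, adjusted p = 2.7e-06). Cma1, a mast cell chymase, rose by 0.97 (SE 0.25, adjusted p = 0.008), from 0.951 to 1.81 FPKM in ND to 2.12 to 5.15 FPKM in HFD. In the same libraries 7 of the 8 macrophage markers were called higher in HFD, and lower with each supplement than in HFD. The part of macrophage number in these genes was not tested.

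The other ends of the system were at or near 0 in this tissue. Renin (Ren1) did not exceed 0.515 FPKM in any library, the receptors Agtr1b and Agtr2 did not exceed 0.106 and 0.0662 FPKM, and the receptor Mas1 did not exceed 0.31 FPKM. Their depth is unknown, so no floor is given.

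**Figure D4:**
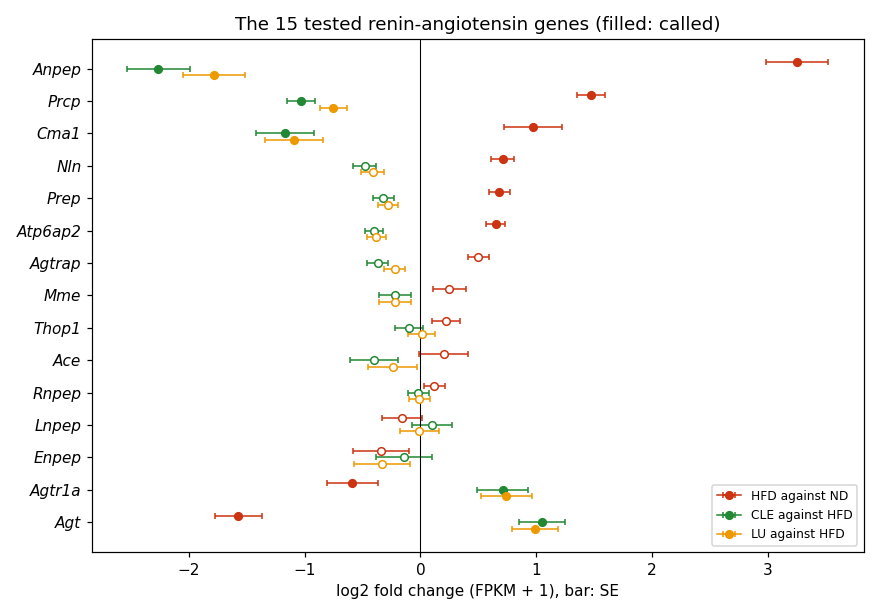
Log2 fold changes of FPKM + 1 (horizontal axis, with SE bars) for the 15 tested renin-angiotensin genes (rows), for HFD against ND, CLE against HFD and LU against HFD, filled where called. Agt and Agtr1a lie on the opposite side of 0 from Anpep, Prcp and Cma1 in each comparison, all 3 of which share the HFD mice.

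Most of the adipocyte markers moved in the direction of Hsd11b1 and Agt. Of the 8, 6 were called lower in HFD than in ND (Cfd, Pnpla2, Adipoq, Plin1, Cidec and Lipe) and Lep was called higher, with a median of -0.76. With CLE, the same 6 were called higher than in HFD and Lep lower, with a median of 0.66, and with LU, Cfd and Adipoq were called higher and Lep lower, with a median of 0.50. To set the members beside these markers, each library was divided by the median ratio of the 8 markers to their geometric means, a scaling chosen after the data were seen.

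That scaling shifts all genes alike. The median of all tested genes moved to 0.61 for HFD against ND, -0.59 for CLE against HFD and -0.40 for LU against HFD, with 52.0% of all tested genes called higher in HFD than in ND, and 50.7% called lower with CLE and 27.1% lower with LU than in HFD. Hsd11b1 and Agt stayed called lower in HFD than in ND on this scale, by -1.17 (SE 0.20, adjusted p = 0.00012) and -0.87 (SE 0.19, adjusted p = 0.00095), where 1.87% of all tested genes were called lower. Agtr1a changed sign to 0.05 (SE 0.25, adjusted p = 0.87). The CLE difference was 0.09 for Hsd11b1 (adjusted p = 0.69), 0.39 for Agt (adjusted p = 0.076) and 0.11 for Agtr1a (adjusted p = 0.69), and the LU difference was 0.31 for Hsd11b1 (adjusted p = 0.19), 0.52 for Agt (adjusted p = 0.032, under the fold change for a call) and 0.31 for Agtr1a (adjusted p = 0.29). None of these was called higher, as 0.713% of all tested genes were with CLE and 0.838% with LU. All 6 values lay above the shifted median, as they did above the median before scaling. Since the scaling shifts all genes alike, this adds nothing to the values as deposited. Ace was at 0.89 (adjusted p = 0.0022) and Tsc22d3 at 1.03 (adjusted p = 0.0005) for HFD against ND, both called higher like 52.0% of all tested genes. With CLE, Ace (-1.06, adjusted p = 0.00075) and Tsc22d3 (-0.65, adjusted p = 0.011) were called lower like 50.7% of them, and with LU, Ace (-0.71, adjusted p = 0.016) like 27.1%.

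**Figure D5:**
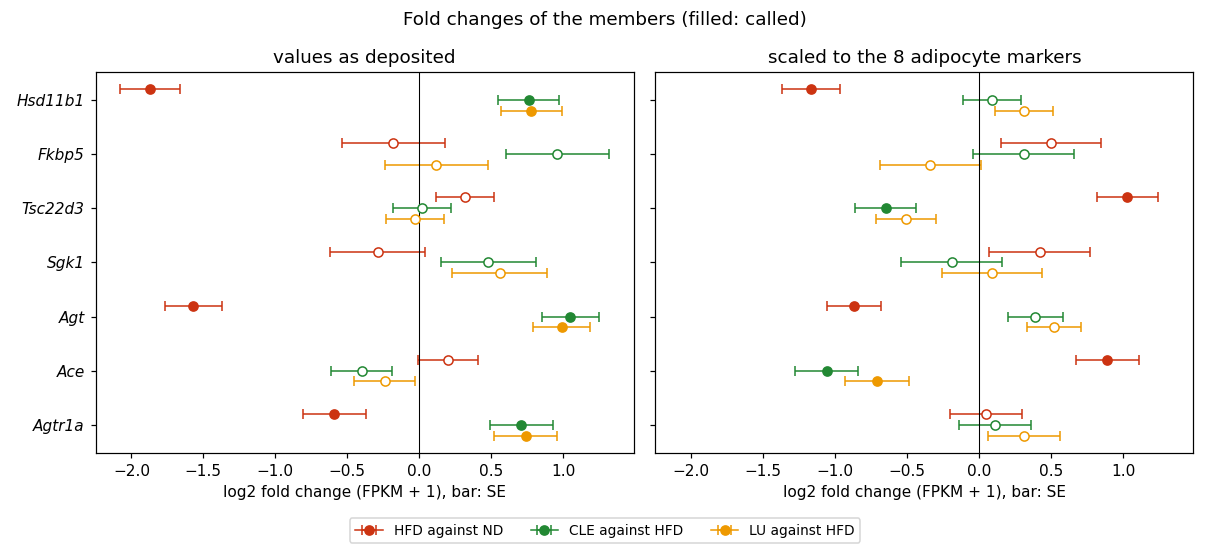
Log2 fold changes of FPKM + 1 (horizontal axes, with SE bars) of the 7 genes for HFD against ND, CLE against HFD and LU against HFD, filled where called, from the values as deposited (left) and after scaling to the 8 adipocyte markers (right). Hsd11b1 and Agt stay called lower in HFD in both, at -1.17 and -0.87 after scaling, while their rises with CLE and LU are called on the left alone. The scaling shifts all genes, with medians of 0.61, -0.59 and -0.40 in the 3 comparisons.

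Some of the endothelial and of the smooth muscle and pericyte markers moved in the direction of Agtr1a, which vascular cells express. In HFD, 2 of 8 endothelial markers were called lower than in ND, where 10.8% of all tested genes were. With CLE 4 and with LU 5 were called higher than in HFD, beside 6.34% and 4.81% of all tested genes. Of the 7 tested smooth muscle and pericyte markers, 3 were called lower in HFD, with a median of -0.54. In that comparison 1 (Pdgfrb) was called higher, beside 14.8% of all tested genes. With each supplement only 1 of the 7 (Acta2) was called higher. Their part in the Agtr1a values was not tested.

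CLE and luteolin, a flavone that is a single compound where CLE is a plant extract, were given at different doses, and 0 of the 7 genes were called between them, beside 0.00783% of all tested genes in either direction (1 gene, with 672 at an unadjusted limma p under 0.05). The difference of CLE to LU was -0.02 for Hsd11b1 (interval -0.48 to 0.43), 0.06 for Agt (interval -0.38 to 0.51) and -0.02 for Agtr1a (interval -0.50 to 0.46). For Sgk1 it was -0.08 (interval -0.79 to 0.64), for Tsc22d3 0.05 (interval -0.39 to 0.49) and for Ace -0.16 (interval -0.62 to 0.30). Fkbp5 differed most, by 0.84 (interval 0.04 to 1.63, unadjusted p = 0.041, adjusted p = 0.89), with CLE mouse 4 its highest value. It was the 1 member whose CLE and LU mice did not overlap, with CLE the higher (2.69% of all tested genes). The intervals leave room for differences of more than 1.5-fold in Sgk1, Ace and Fkbp5.

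The genes most like each member over the 12 libraries, by Pearson's r of log2(FPKM + 1) among 9292 genes with a mean of 5 FPKM or more, are given as a description. For Hsd11b1 they were Trf (transferrin, r = 0.98) and Ndufa6 (r = 0.96), and for Agt Zmat1 and Kif1bp (both r = 0.98). Trf had means of 2349 FPKM in ND, 1278 in HFD, 1620 in CLE and 1567 in LU. For Fkbp5 they were Ranbp9 (r = 0.93) and Sdc4 (r = 0.92), for Tsc22d3 Fam114a2 (r = 0.84) and Sike1 (r = 0.82), and for Sgk1 Ugcg (r = 0.93) and Fnbp1l (r = 0.92). For Ace they were Setd2 (r = 0.94) and Trim33 (r = 0.89), and for Agtr1a Abcc9 (r = 0.96) and Synm (r = 0.94). Among the members themselves, Hsd11b1 and Agt had the highest r, at 0.92, and at 0.76 after each group's mean was removed, while Sgk1 and Agtr1a had 0.74 and 0.68. Other pairs were similar after that removal, namely Fkbp5 and Agt (0.75), Fkbp5 and Ace (0.74) and Agt and Ace (0.72). Before it, these pairs had 0.41, 0.19 and -0.08. The points share libraries and group differences, so that these values carry no test.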

How the data were processed

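RNA of eWAT from 12 mice was measured, 3 in each of 4 groups taken from the diet in the labels. Per the methods, the authors extracted RNA from the tissue, prepared mRNA libraries with a TruSeq RNA kit, and sequenced them in pairs. Strand is not mentioned, and libraries of this kit were taken not to mark it. The submitters' processing notes name CASAVA 1.8.2, TopHat2 2.0.12, Bowtie2 2.2.3 and Cufflinks 2.2.1. The genome build is not given in the sources used here. The authors deposited FPKM values for 152210 transcripts in 15 columns. Of these, 3 had headers that fit no sample and were left out. The column headed MD4 was taken for ND mouse 4, which is inferred. Columns with the authors' own calls were not used.

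Transcripts were matched by identifier to GENCODE M21 (GRCm38), where 87.6% of the 76916 annotated transcripts found had the same start and end. Those with an annotated identifier, or assembled with the class code for an exact or a partial match, were summed per gene. The rest, mostly transcripts of no annotated gene, held 65.9% to 92.9% of each column's total, and gene totals were 434360 to 454257 FPKM. The files give no counts, and low values showed no steps of whole reads (at most 37% near whole multiples), so depth and its precision are unknown.

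limma 3.58.1 (R 4.3.3) was fitted to log2(FPKM + 1) over 12769 genes, with 12 libraries, a coefficient per group and no covariate. Adding 1 understates fold changes of low genes. On simulated CLE against HFD values of these 12769 genes, 180 of 200 changes of 1 on the log2 scale were recovered and 199 of 200 of 2. Exact permutation tests were two-sided. Tables used Python 3.11.15, pandas 2.3.3, numpy 2.4.6 and scipy 1.17.1, and plots matplotlib 3.10.9. Promoter sequences are from RefSeq (GRCm38.p6), and those of 1 chromosome were not searched.

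The members, gene lists and alternatives were chosen with earlier results of these data known. Named are the members, receptors and renin, the 4 called genes per list and comparison with the largest change, the 2 genes most like each member, and genes that give a count of a list; those that are highest in a single library were picked after their values were seen. Of the 26 glucocorticoid-induced genes, 1 was not analysed here. The result of 1 gene of the lists is not reported here. The alternatives are given with the limits.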

Additional observations from a re-analysis of the deposited data

How the results depend on the processing

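Of 1148 fold changes of single members under all alternatives, 1017 kept their sign and their side of the threshold, 48 lost the call and 13 gained it. A call could be lost only where the main fit had made one, which it had not for most of the 1148. The other 70 of the 1148 changed sign, 68 of them called in neither fit. Of these 70, 2 were called in either fit, both under the scaling to adipocyte markers (chosen after seeing the data), where Agtr1a was at 0.05 for HFD against ND and Tsc22d3 at -0.65 for CLE against HFD. Sgk1 also changed sign there, to 0.42 for HFD against ND and -0.19 for CLE against HFD. Without the letter R libraries Fkbp5 turned to -0.33 for CLE against ND and Sgk1 to -0.44 for LU against ND. Agt was called in HFD against ND, CLE against HFD and LU against HFD under every alternative other than that scaling, which took away the CLE and LU calls. The number of members called was 3 in each of these comparisons in the main fit. For HFD against ND, the Agtr1a call was lost in 8 of 15 alternatives other than leaving out 1 library. Among them were no filter, equal totals, array weights and annotated transcripts alone. The Agtr1a calls with CLE and with LU were each lost in 4 of 15. For CLE against HFD the number called was 1 in a fit of only the groups compared. For LU against HFD it was 1 (Ace, lower) under the adipocyte scaling. For CLE against ND the 1 call (Hsd11b1) became 0 in a fit of only those groups, without the 4 libraries with the letter R, and with the mouse number as a replicate block. For LU against ND the 1 call became 0 without the letter R libraries, and 2 (Hsd11b1 and Agt, both lower) with the transcript of the highest mean or with annotated transcripts alone. The cause was not tested. Without the letter R libraries, ND is 1 mouse, assumed to vary like the other groups.

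Leaving out each library in turn gave 2 to 3 calls for HFD against ND, 1 to 4 for CLE against HFD (1 without CLE mouse 4), 1 to 3 for LU against HFD (1 without LU mouse 8), 0 for CLE against LU, 0 to 1 for CLE against ND (0 without ND mouse 2) and 1 for LU against ND. Mouse numbers are shared among ND, CLE and LU alone, and correlations of same-numbered mice after removing group means were between -0.099 and 0.189. These few values, from groups of 3 mice, cannot decide whether the numbers pair the mice. The main fit used no pairing. The replicate block gave 0 calls for CLE against ND and 1 for LU against ND, and no block could be fitted for comparisons with HFD, which share no number. Also tried were the adjusted p alone, a covariate for the letter R, array weights, a trend, quantiles, median ratios, equal totals, a mean of 5 FPKM, no filter and a pseudocount of 0.1.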
